A study of Mus musculus with 19 samples.

Results

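The genes *Pou5f1*, *Nanog*, *Sox2*, *Klf4*, *Esrrb*, *Zfp42*, *Tfcp2l1*, *Prdm14*, *Tbx3* and *Dppa3*, most of which encode transcription factors of pluripotent cells, were examined for gain or loss of repressive histone marks when DNA methylation is lost. They were taken as a list by name, 10 of the 23640 protein-coding and lincRNA genes annotated on NCBIM37. For each gene, every 2 kb tile that overlapped the gene or the 20 kb on either side of it was used, which gave 349 of the 1327469 tiles in the table. Each such stretch is called a locus here. The tiles that overlapped 1 kb either side of the annotated start, 2 tiles for each gene, are called the gene start.

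ChIP-seq of H3K27me3, H3K9me2 and H3K9me3 had been carried out in mouse embryonic stem cells (ESCs). Conditional knockout cells (*Dnmt1* cKO, DNMT1KO in the labels), in which Cre recombinase induced by tamoxifen removes *Dnmt1*, the gene of the maintenance DNA methyltransferase, were compared with control cells labelled Wildtype. For each mark there were 6 libraries, 1 per genotype at day 4 and 2 per genotype at day 8, and 1 input library of chromatin without immunoprecipitation came from control cells. The labels give the background strain E14 for all samples, whereas the methods describe *Dnmt1* loxP/loxP ESCs of strain C57BL/6, grown in serum and LIF on gelatin with or without feeder cells. No source names separate lines or animals for the replicates. The series' design text speaks of biological replicates and the methods of a single ChIP-seq measurement, and p-values measure only the spread between these libraries.

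H3K27me3 is laid down by Polycomb repressive complex 2 and is typical of CpG-rich starts of developmental genes that ESCs hold silent. H3K9me3, written by SETDB1 and SUV39H enzymes, marks retrotransposons and heterochromatin, and H3K9me2, written by G9a and GLP, covers broad silent domains. The *Pou5f1*, *Sox2* and *Nanog* products form the core of the network that keeps ESCs pluripotent. *Klf4*, *Esrrb*, *Tfcp2l1*, *Tbx3* and *Zfp42* belong to its naive branch, and *Prdm14* and *Dppa3* also act in germ cells. Transcript levels were not measured in these libraries, and the activity of the genes was not analysed here.

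The ChIP libraries held 14627174 to 26181489 reads in tiles, but replicate 1 of H3K9me3 in cKO cells at day 8 held 5669098 reads, with 3 in the median tile, and 12.7% of its tiles held none. The input held 19010249 reads. The day 8 H3K9me2 cKO library of replicate 2 also stood apart: its log2 level over input had an SD of 0.29 over all gene loci, against 0.56 to 0.75 in the other 5 H3K9me2 libraries. Of the 349 tiles, 317 had at least 10 input reads and were used for counts of tiles. Levels are the reads in the tiles of a window, as a share of all reads of the library, relative to the same share of the input, on the log2 scale, so that 0 is the input and 1 is 2 times the input. They are relative to each library's own total, and a loss of a mark in every cell cannot be told apart from its loss in part of the cells.

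The starts differ in CpG density, the sequence feature most tied to Polycomb in mammals. The 300 bases from 250 upstream of the annotated start to 50 downstream, read 5′ to 3′ from the NCBIM37 reference on the strand of the gene, are shown with every CpG dinucleotide in capitals (the motif CG reads the same on both strands). They were chosen to set 3 starts with H3K27me3 beside 2 without it: *Klf4* (chr4:55545298-55545597, minus strand, 40 CpG), *Tbx3* (chr5:120120428-120120727, plus strand, 29 CpG), *Prdm14* (chr1:13117195-13117494, minus strand, 10 CpG), *Pou5f1* (chr17:35642732-35643031, plus strand, 11 CpG) and *Nanog* (chr6:122657257-122657556, plus strand, 4 CpG).
Klf4: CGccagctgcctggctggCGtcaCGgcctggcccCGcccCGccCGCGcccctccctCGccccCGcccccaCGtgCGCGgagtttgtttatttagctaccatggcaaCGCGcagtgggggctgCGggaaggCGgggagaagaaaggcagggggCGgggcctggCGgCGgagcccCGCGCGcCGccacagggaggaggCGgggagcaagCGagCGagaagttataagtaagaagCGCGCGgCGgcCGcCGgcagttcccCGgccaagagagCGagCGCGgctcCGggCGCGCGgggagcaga
Tbx3: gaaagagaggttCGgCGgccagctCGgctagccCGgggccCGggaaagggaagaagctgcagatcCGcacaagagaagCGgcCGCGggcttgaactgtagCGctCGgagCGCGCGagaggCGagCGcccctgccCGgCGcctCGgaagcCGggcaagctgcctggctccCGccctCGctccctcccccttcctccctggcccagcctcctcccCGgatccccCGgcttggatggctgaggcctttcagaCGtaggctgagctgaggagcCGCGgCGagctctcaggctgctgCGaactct
Prdm14: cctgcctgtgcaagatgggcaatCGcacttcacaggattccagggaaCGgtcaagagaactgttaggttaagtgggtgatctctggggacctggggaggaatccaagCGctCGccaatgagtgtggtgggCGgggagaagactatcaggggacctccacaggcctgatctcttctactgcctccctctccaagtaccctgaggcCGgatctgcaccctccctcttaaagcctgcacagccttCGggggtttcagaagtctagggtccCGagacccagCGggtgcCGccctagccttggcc
Pou5f1: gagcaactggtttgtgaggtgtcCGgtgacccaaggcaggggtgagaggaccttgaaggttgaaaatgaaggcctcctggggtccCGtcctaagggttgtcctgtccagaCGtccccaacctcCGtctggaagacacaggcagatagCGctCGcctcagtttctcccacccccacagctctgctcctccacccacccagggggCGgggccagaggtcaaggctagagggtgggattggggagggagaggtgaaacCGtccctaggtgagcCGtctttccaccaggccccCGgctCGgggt
Nanog: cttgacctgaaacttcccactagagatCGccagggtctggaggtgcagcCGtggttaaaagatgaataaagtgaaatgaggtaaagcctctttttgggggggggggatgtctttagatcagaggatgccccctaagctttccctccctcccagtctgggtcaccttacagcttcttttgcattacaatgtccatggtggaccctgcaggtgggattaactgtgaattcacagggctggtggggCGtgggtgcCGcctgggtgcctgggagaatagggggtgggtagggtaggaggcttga

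Over the same 300 bases *Klf4* ranked at percentile 95.4 of all genes in CpG number, *Tbx3* at 84.7, *Pou5f1* at 48.1, *Prdm14* at 45.9 and *Nanog* at 25.1. *Prdm14* and *Pou5f1* thus differed by 1 CpG in this window, while their starts lay at opposite ends in H3K27me3, as given further on. In the 4 kb of the start tiles the numbers were 249 CpG for *Klf4*, 230 for *Sox2*, 219 for *Tbx3* and 129 for *Prdm14*, and between 61 (*Nanog*) and 84 (*Zfp42*) for the other 6 genes. Over all genes the median H3K27me3 level at the start in control cells did not rise steadily with CpG number. It was -0.06 with 0 to 4 CpG in the 300 bases, 0.57 with 5 to 9, 0.25 with 10 to 19, -0.20 with 20 to 29 and 0.22 with 30 or more.

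H3K27me3 divided the 10 loci into 6 above and 4 below the input, in control and in *Dnmt1* cKO cells alike. All 3 control libraries lay above the input at *Tbx3*, *Sox2*, *Klf4*, *Esrrb*, *Prdm14* and *Dppa3*, and all 3 below it at *Tfcp2l1*, *Zfp42*, *Pou5f1* and *Nanog*. Over all genes 46.1% of loci were above the input in all 3 control libraries, and the share below it in all 3 was not determined. The members' median level in control cells was 1.14, against 0.01 over all genes.

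The core trio was split. *Pou5f1* (ENSMUSG00000024406, chr17:35642982-35647721), which encodes the POU factor OCT4, had H3K27me3 levels of -0.88 at day 4 and -1.06 and -1.22 at day 8 in control cells, and of -0.91, -0.70 and -0.79 in cKO cells. The homeobox gene *Nanog* (ENSMUSG00000012396, chr6:122657507-122664651) had -1.13, -1.28 and -1.09 in control and -1.35, -1.23 and -1.43 in cKO cells. Both were thus depleted in every library, and among all gene loci they stood at percentiles 6.57 and 4.68 in control cells. *Sox2* (ENSMUSG00000074637, chr3:34548927-34551383), the gene of the HMG-box partner of OCT4, lies inside the lincRNA gene *Sox2ot* and was marked, with 1.44, 1.57 and 1.49 in control and 1.57, 1.15 and 0.89 in cKO cells. Its day 8 cKO libraries were below both day 8 controls, and its day 4 cKO library was not.

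Within the naive branch, *Tbx3* (ENSMUSG00000018604, chr5:120120678-120134733), a T-box gene that also patterns limb and heart, had the highest level of the 10 loci. Its control libraries stood at 2.64 at day 4 and 2.54 and 2.94 at day 8, and its cKO libraries at 2.46, 1.82 and 1.85. In ratios to the input this was 6.25, 5.82 and 7.68 in control and 5.51, 3.54 and 3.61 in cKO cells, with exact binomial 95% limits of 5.24 to 6.48 for the first day 8 control and 3.17 to 3.96 for the first day 8 cKO library, which cover counting error only. *Klf4* (ENSMUSG00000003032, chr4:55540013-55545347, minus strand), a zinc finger gene of the reprogramming set, had 1.22, 1.19 and 1.40 in control and 1.10, 0.89 and 0.74 in cKO cells. *Esrrb* (ENSMUSG00000021255, chr12:87702067-87862578), an orphan nuclear receptor gene and with 160.51 kb the longest of the 10, had 1.24, 1.27 and 1.21 in control and 1.19, 0.93 and 0.89 in cKO cells. At each of these 3 loci every cKO library was below every control library, day 4 included. The share of all gene loci with the libraries apart in this way was not determined for any mark.

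*Tfcp2l1* (ENSMUSG00000026380, listed as Tcfcp2l1, chr1:120524522-120581744), a target of LIF signalling through STAT3, was depleted over its locus, with a control level of -0.47 ± 0.06 and a cKO level of -0.78 ± 0.23 (SD, n = 3, days 4 and 8 together). Every cKO library there was also below every control library, the highest cKO value being -0.54 and the lowest control value -0.53. The share of all gene loci that did so was not determined here either. *Zfp42* (ENSMUSG00000051176, chr8:44380422-44392363, minus strand), which encodes REX1, had -0.88 ± 0.18 and -0.98 ± 0.22 (SD, n = 3). The germline pair was marked: *Prdm14* (ENSMUSG00000042414, chr1:13103538-13117244, minus strand), whose product represses *de novo* DNA methyltransferase genes in ESCs, had 1.12, 1.27 and 1.10 in control and 0.97, 0.69 and 0.39 in cKO cells, all cKO libraries being below all controls. *Dppa3* (ENSMUSG00000046323, chr6:122576428-122580290), which encodes STELLA, a guard of DNA methylation in the early embryo, had 1.12 ± 0.22 in control and 0.95 ± 0.27 in cKO cells (SD, n = 3), and its day 8 groups overlapped.

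**Figure D1:**
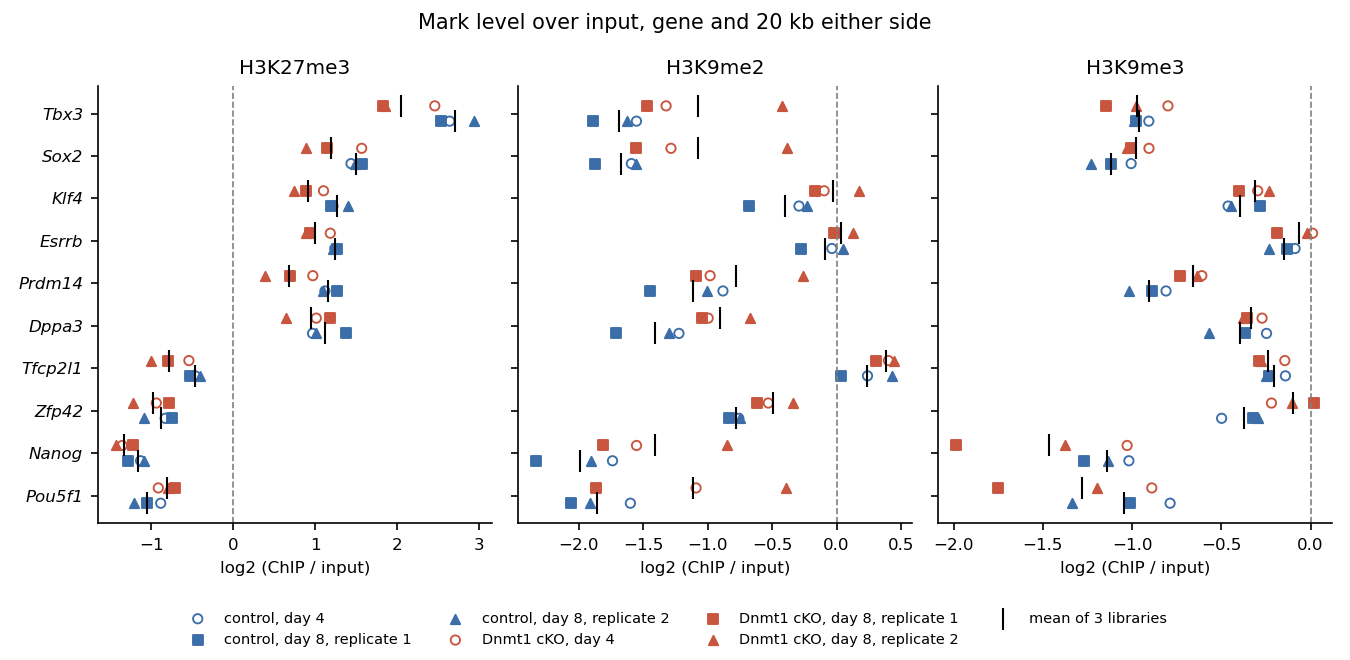
Levels of the 3 marks at the 10 loci as log2 of ChIP over input, 1 point per library, with control cells in blue, Dnmt1 cKO cells in red, day 4 as open circles, day 8 replicates as squares and triangles, and vertical bars at the mean of 3 libraries. In H3K27me3, 6 loci lie right of the input line at 0 and 4 lie left of it in every library, while in H3K9me3 and H3K9me2 most loci lie left of it.

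At day 8 the direction of H3K27me3 in cKO cells was mostly downward. Both cKO libraries were below both controls at 6 loci (*Tbx3*, *Prdm14*, *Sox2*, *Klf4*, *Tfcp2l1* and *Esrrb*), as at 35.6% of all gene loci, and above both at *Pou5f1*, as at 17.3% of all gene loci. The mean difference on the log2 scale was -0.90 at *Tbx3* (95% limits -1.29 to -0.52, 0.535 times the control), -0.65 at *Prdm14*, -0.51 at *Sox2*, -0.48 at *Klf4*, -0.43 at *Tfcp2l1* and -0.33 at *Esrrb*. The differences at *Dppa3* (-0.28), *Nanog* (-0.15) and *Zfp42* (-0.09) had limits on both sides of 0, and *Pou5f1* differed by 0.39 (limits 0.08 to 0.70). The members' median difference was -0.38, against -0.07 over all gene loci. Left out in turn, the libraries gave medians from -0.54, without cKO replicate 1, to -0.31.

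None of these differences passed the test. In limma over 23526 gene loci 0 of the 10 members and 0% of all loci had a Benjamini-Hochberg adjusted p under 0.05, and the smallest adjusted p of a member was 0.165, at *Tbx3*. At an unadjusted p under 0.05, 6 members were lower, with a background of 16.6% of all loci, and 1 was higher, with a background of 3.02%. The limma-voom fit on recovered reads also called 0 members, whereas a fit with same-numbered libraries as blocks did call members, as given in the closing section. Without cKO replicate 1 the adjusted p passed at *Sox2*, *Klf4*, *Tfcp2l1*, *Prdm14* and *Tbx3*, among 3687 loci called in all, and without control replicate 1 at *Tbx3* alone of the 10, among 115. With 2 libraries against 2 there are 6 arrangements, so that an exact permutation test could not give a two-sided p below 0.333.

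At day 4, with 1 library of each genotype and no test, 8 loci were lower and 2 higher in cKO cells, between -0.22 and 0.13. The median was -0.09, against -0.03 over all gene loci, and the share of all gene loci that were lower was not determined. The test of the day 8 against the day 4 difference takes its spread from the day 8 libraries alone, since day 4 has 1 library per genotype, so that its count says little. It called 0 members and 0% of all loci, and *Sox2* and *Tbx3* had an unadjusted p under 0.05 in it, as did 318 of 23530 loci.

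The gene starts showed a similar but not identical split, over a wider range of levels. H3K27me3 in control cells was highest at the start of *Prdm14*, with 3.36, 3.60 and 3.48, and of *Tbx3*, with 3.24, 3.25 and 3.59. It was lowest at the start of *Zfp42*, with -1.90, -3.08 and -2.60, which placed *Zfp42* at percentile 0.491 of all gene starts, and of *Pou5f1*, with -1.86, -1.71 and -1.98. The starts of 7 genes were above the input in all 3 control libraries, as were 45.9% of all gene starts. Those of *Pou5f1*, *Nanog* and *Zfp42* were below it in all 6 libraries, a share not determined over all gene starts. They held 4 to 21 reads per library, so that counting error is wide there.

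In cKO cells at day 8 both libraries were below both controls at 5 starts (*Klf4*, *Tbx3*, *Prdm14*, *Tfcp2l1* and *Sox2*), with a background of 44.1%, and above both at the start of *Esrrb*, with a background of 12.2%. The widest difference was at *Klf4*. Its 2 start tiles held 146 reads at day 4 and 100 and 221 at day 8 in control cells, and 78, 39 and 44 in cKO cells, so the cKO libraries lay below all controls although the day 8 controls themselves ranged from 1.76 to 2.80 on the log2 scale. The mean day 8 difference was -1.94 (limits -2.86 to -1.02), or 0.261 times the control. It was -1.38 at *Tbx3*, -1.18 at *Prdm14*, -1.15 at *Tfcp2l1*, -0.61 at *Sox2* and -0.45 at *Dppa3*. The members' median was -0.53, and that over all gene starts -0.39, so that much of the downward shift was shared with genes at large.

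No start passed the test either, with 0 members and 0% of 23359 gene starts called. The smallest adjusted p of a member was 0.0603, at *Klf4*, and 4 members (*Klf4*, *Tbx3*, *Tfcp2l1* and *Prdm14*) were lower at an unadjusted p under 0.05, with a background of 23.3%. Limma-voom called *Klf4*, *Tfcp2l1* and *Tbx3* among 2757 starts. Without cKO replicate 1 *Klf4*, *Prdm14* and *Tbx3* were called, among 4780 starts, and without cKO replicate 2 or without control replicate 1 *Klf4* was, among 648 and 101. At day 4 all 10 starts were lower in the cKO library than in the control, by values from -1.08 (*Zfp42*, 10 against 4 reads) to -0.01 (*Dppa3*). The median was -0.37, against -0.12 over all gene starts, so it was negative there too. The share of all gene starts that were lower was not determined.

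**Figure D2:**
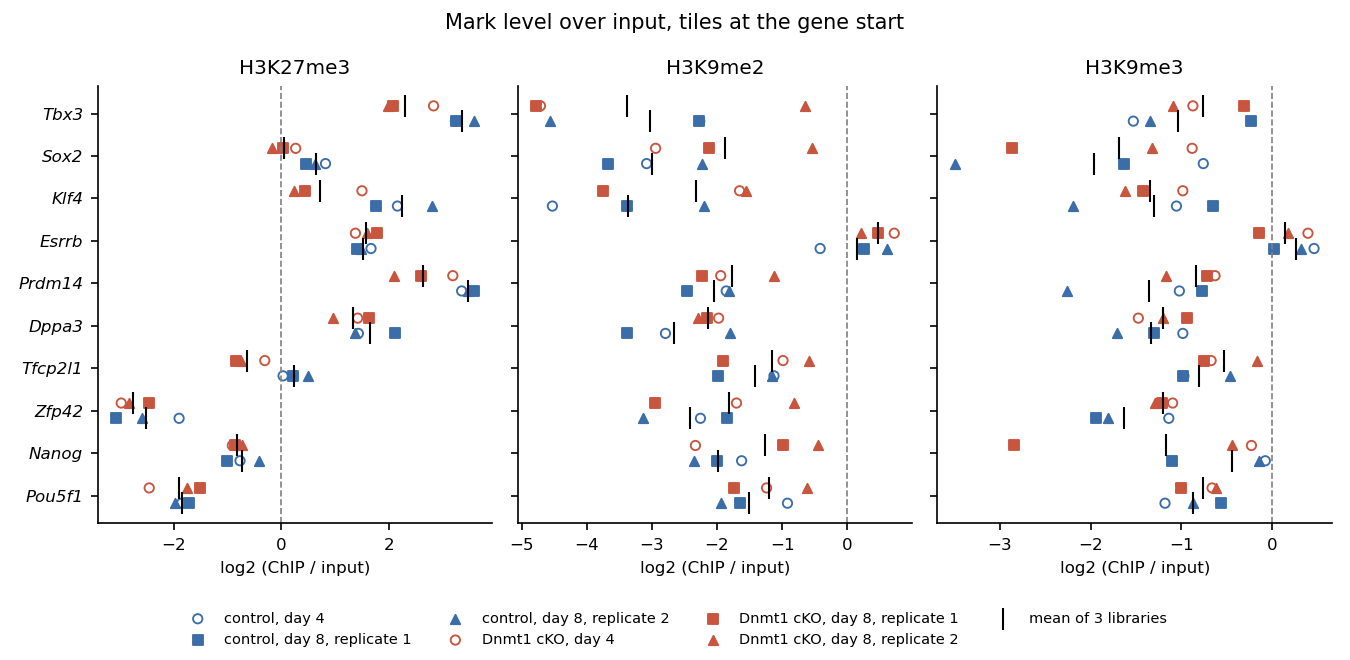
Levels of the 3 marks in the tiles at the 10 gene starts as log2 of ChIP over input, with the same symbols for libraries and means as for the loci. H3K27me3 at Prdm14, Tbx3, Klf4, Esrrb and Dppa3 lies above the input in every library, and the spread between libraries in H3K9me2 and H3K9me3 is wide because few reads fell in these tiles.

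Tile by tile, H3K27me3 was concentrated at 7 of the 10 genes. A tile was counted as enriched where it had at least 2 times the input in all 3 control libraries. Of the 317 tiles 80 were enriched, or 25.2%, against 4.91% of all tiles with at least 10 input reads. *Esrrb* held 29 of them, *Tbx3* 17, *Klf4* 11, *Sox2* and *Dppa3* 8 each, *Prdm14* 5 and *Tfcp2l1* 2, and *Pou5f1*, *Nanog* and *Zfp42* held 0. By the same rule in the 3 cKO libraries 67 tiles, or 21.1%, were enriched, while over all tiles the share was 5.31%.

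The enriched tiles formed domains at different places in the genes. At *Prdm14* a run of 4 tiles (chr1:13114001-13122000) lay across the start, with a mean level of 3.50 ± 0.11 in control and 2.68 ± 0.48 in cKO cells (SD, n = 3). At *Tbx3* a run of 6 tiles upstream of the start (chr5:120108001-120120000) had 3.74 ± 0.15 and 3.05 ± 0.41, and 2 further runs covered the gene and its downstream flank. *Klf4* had a run of 4 tiles across its start (chr4:55542001-55550000), with 2.15 ± 0.41 in control and 0.87 ± 0.62 in cKO cells, and a run of 6 tiles downstream of the gene (chr4:55524001-55536000), with 1.65 ± 0.14 and 1.502 ± 0.076. The 2 runs of *Klf4* thus differed in how far the cKO libraries lay below the controls. A run of 2 tiles upstream of *Sox2* (chr3:34530001-34534000) went the other way, with 1.54, 1.37 and 1.42 in control and 2.12, 2.12 and 1.47 in cKO cells. At *Esrrb*, chr12:87716001-87722000 (1.99 ± 0.13 and 2.06 ± 0.08) and chr12:87872001-87884000 (1.85 ± 0.12 and 1.90 ± 0.15) hardly differed. Apart from these and the run at the *Esrrb* start, every run had a lower mean in cKO cells. The runs were chosen on the control libraries, so that these differences are a description.

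*Esrrb* was marked more strongly inside the gene than at its annotated start. The highest of its tiles (chr12:87762001-87764000, 60.9 kb from the start, with a coding exon) had 372 reads at day 4 and 452 and 402 at day 8 in control cells, against 266, 180 and 180 in cKO cells and 16 in the input. The log2 levels were 4.46 ± 0.21 in control and 3.49 ± 0.50 in cKO cells (SD, n = 3). Of the 7 annotated transcripts of *Esrrb* 4 start in this tile, which holds 119 CpG. The tiles at the annotated start itself had 1.52 ± 0.13 in control and 1.59 ± 0.20 in cKO cells (SD, n = 3).

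**Figure D3:**
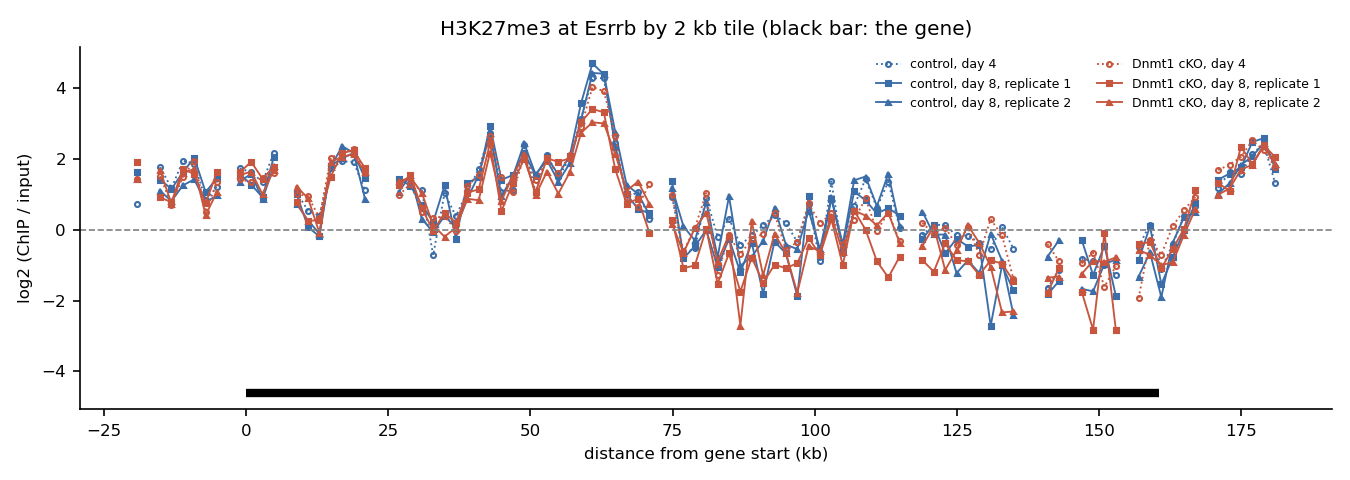
H3K27me3 along the Esrrb locus as log2 of ChIP over input in each 2 kb tile with at least 10 input reads, against the distance from the gene start in kb, with 1 line per library and the gene as a black bar. The peak at 60.9 kb reaches 4.27 to 4.69 in the 3 control libraries and 3.03 to 4.03 in the 3 cKO libraries, and the level rises again in the flank beyond the gene.

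The highest H3K27me3 tile of the other marked genes lay 7.7 kb upstream of the start at *Tbx3* (4.22 ± 0.08 in control, 3.55 ± 0.44 in cKO cells), at the start of *Prdm14* (4.13 ± 0.15 and 3.28 ± 0.54), 3.4 kb upstream at *Dppa3* (3.21 ± 0.25 and 3.02 ± 0.23), 7.9 kb upstream at *Sox2* (3.14 ± 0.16 and 2.36 ± 0.57), over the start exon of *Klf4* (2.60 ± 0.68 and 0.83 ± 0.75) and 3.5 kb upstream at *Tfcp2l1* (2.27 ± 0.22 and 1.78 ± 0.42; SD, n = 3 throughout). At *Zfp42*, *Pou5f1* and *Nanog* the highest tile reached 0.55 ± 0.61, 0.45 ± 0.27 and 0.44 ± 0.28 in control cells. Even the most marked tile of these 3 loci was therefore within 2 times the input on average, and for *Pou5f1* it lay in the neighbouring gene *Cchcr1*, 18 kb from the start.

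**Figure D4:**
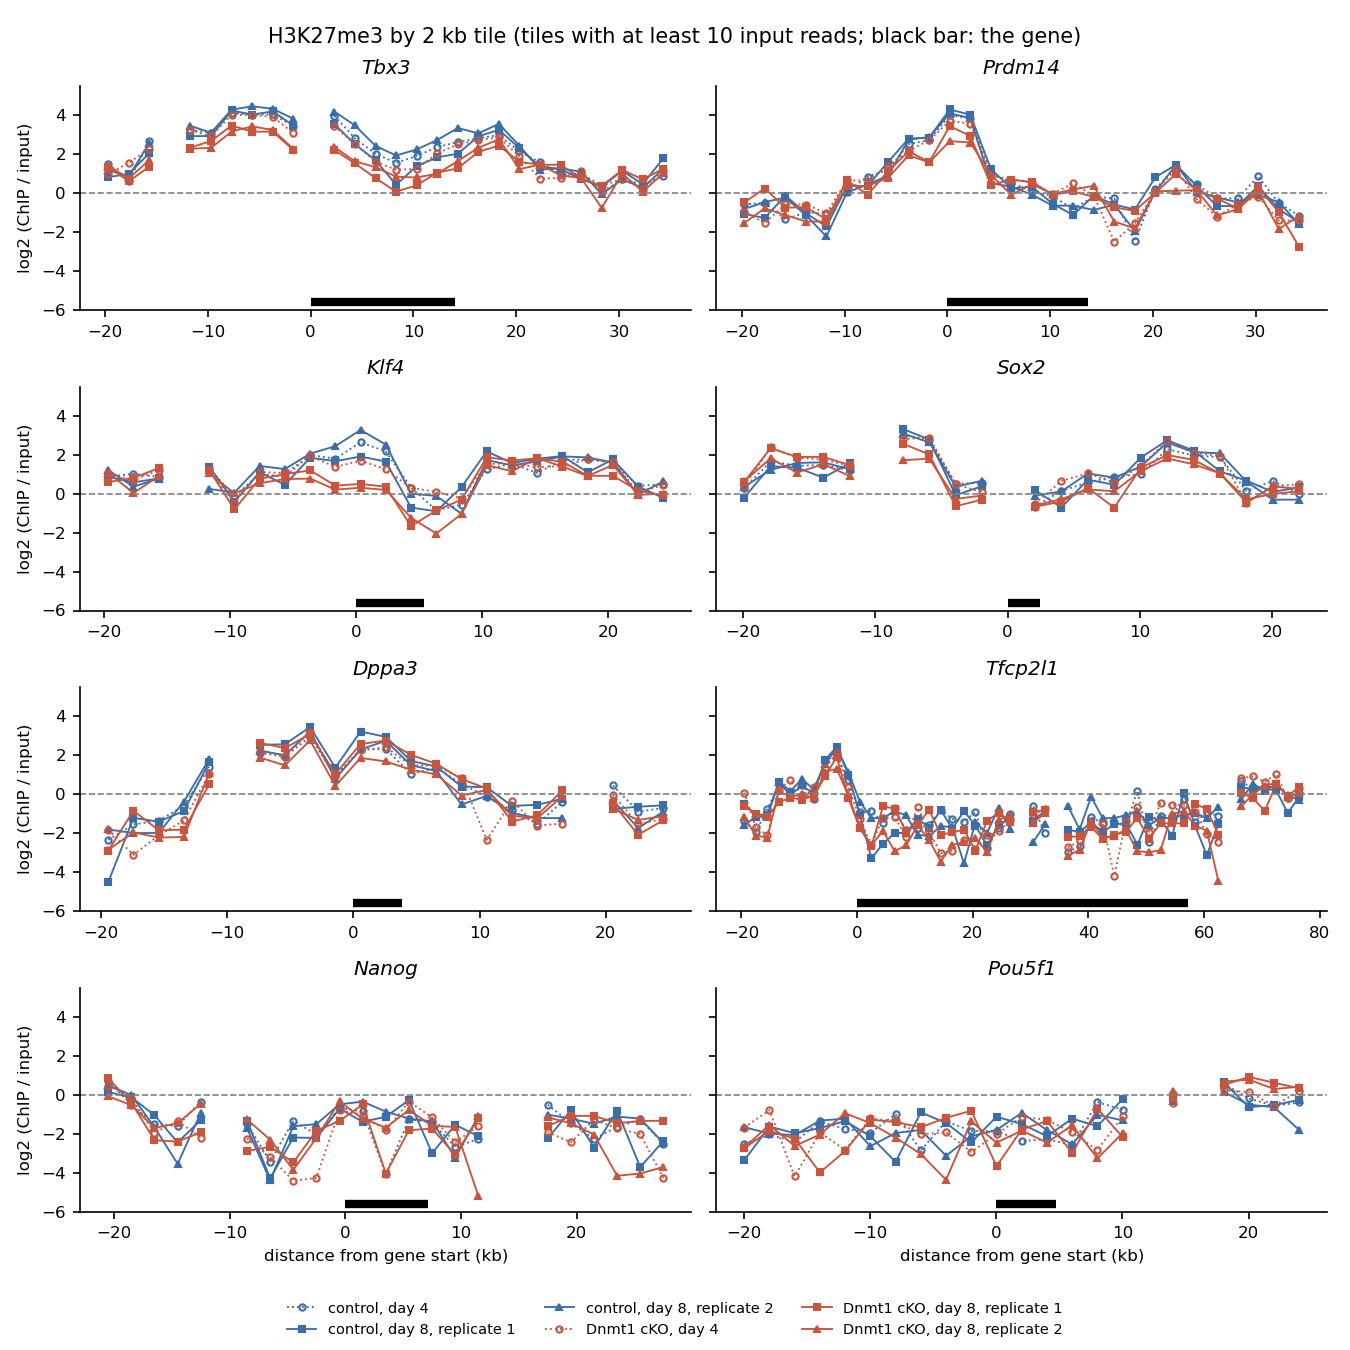
H3K27me3 along 8 of the loci as log2 of ChIP over input in each 2 kb tile with at least 10 input reads, against the distance from the gene start in kb, with 1 line per library and the gene as a black bar. Domains above the input line at Tbx3, Prdm14, Klf4, Sox2, Dppa3 and upstream of Tfcp2l1 contrast with Nanog and Pou5f1, where nearly all tiles lie below it, and the red day 8 lines run below the blue ones at the starts of Tbx3, Prdm14 and Klf4.

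Gain of H3K27me3 was not seen at any of these loci by the tile count. A tile was counted as gained where both day 8 cKO libraries had at least 2 times the input and neither day 8 control did. The 80 tiles enriched in control cells could therefore not count as gained. The gain count of 0 tiles does not cover a rise within domains that were already marked. By this rule the outcome was as follows. Gain was counted in 0 of 317 tiles, with a background of 1.19%, and without cKO replicate 1 or 2 in 1 and 3 tiles, against 2.71% and 2.86% of all tiles. At least 2 times more reads, as a share of the library, in cKO than in control cells in both day 8 pairs were found in 2 tiles, with a background of 0.948%, and at least 2 times fewer in 17 tiles, with a background of 1.57%. The 17 lower tiles were 4 at *Esrrb*, 3 each at *Klf4*, *Tfcp2l1* and *Tbx3*, 2 at *Prdm14* and 1 each at *Nanog* and *Zfp42*. When cKO replicate 1 or 2 was left out, so that 1 pair of libraries alone had to pass, 10 and 22 tiles were higher, against 6.77% and 8.15% of all tiles, and 69 and 43 lower, against 7.56% and 7.72%.

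The 2 higher tiles were poor in H3K27me3 or beside the gene. The widest rise in any member tile (chr6:122650001-122652000, intergenic, 6.5 kb upstream of *Nanog*) went from 2, 1 and 1 reads in control to 2, 3 and 5 in cKO cells, with 18 reads in the input, and so stayed far below the input. The other (chr17:35662001-35664000, a coding exon of *Cchcr1*, 20 kb from the start of *Pou5f1*), named after its values were seen, went from 18, 12 and 14 to 19, 34 and 40 reads. It is part of the difference of 0.39 over the *Pou5f1* locus, which became -0.61 when the gene was taken without its flanks. The widest fall was in the start tile of *Klf4* (chr4:55544001-55546000), from 75, 41 and 113 to 33, 15 and 17 reads, a day 8 difference of -2.19. Its adjusted p over 1255417 tiles was 0.565, and 0% of all tiles were called for any of the 3 marks.

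**Figure D5:**
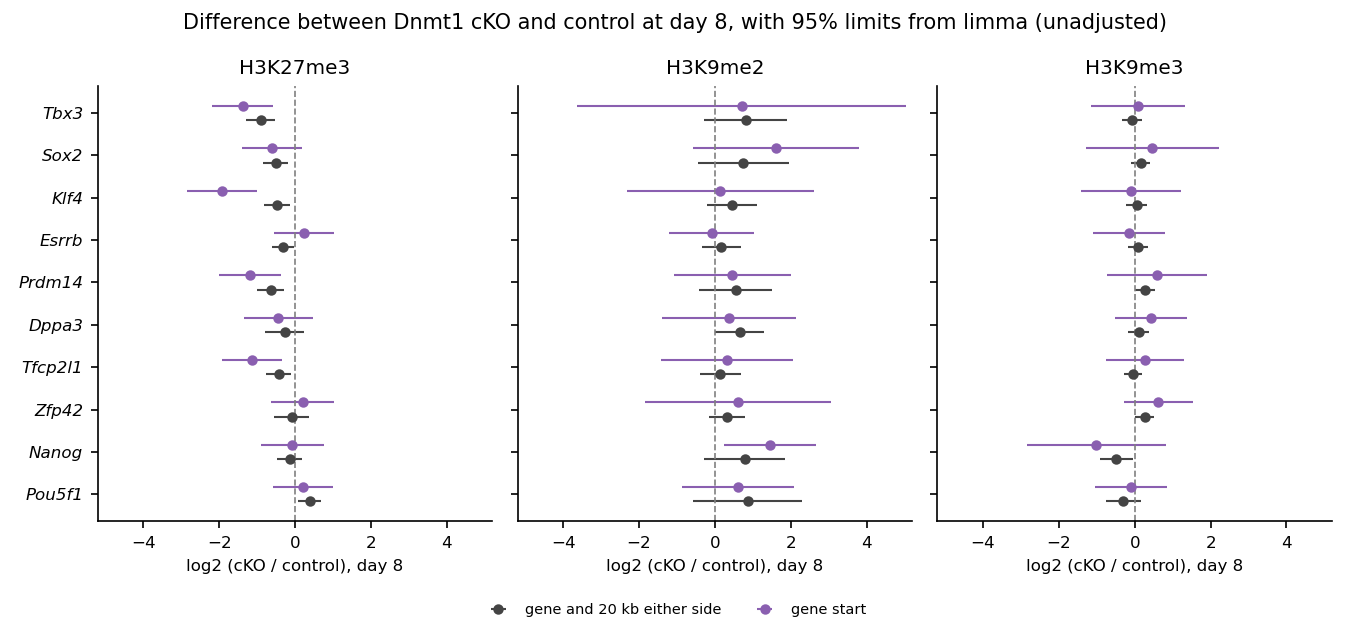
Day 8 difference between Dnmt1 cKO and control as log2 of cKO over control for each mark and gene, with bars for 95% limits from limma without adjustment, in grey for the gene with 20 kb either side and in purple for the gene start. H3K27me3 points lie left of 0 at most genes, down to -1.94 at the start of Klf4. All 10 H3K9me2 points for the loci lie right of it, between 0.15 and 0.86, as does the median of 0.25 over all gene loci.

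H3K9me2 was low at most of the pluripotency loci and somewhat higher in cKO libraries, and the size of the median difference depended strongly on 1 library. Only *Tfcp2l1* was above the input in all 3 control libraries (0.24, 0.03 and 0.43), against 21.9% of all gene loci, and 8 loci were below it in all 3. The share of all gene loci below it in all 3 was not determined, and their median level in control cells was -0.34. *Nanog* was the most depleted, with -1.74, -2.33 and -1.90 in control and -1.55, -1.82 and -0.85 in cKO cells. *Pou5f1* followed, with -1.60, -2.06 and -1.91 in control and -1.09, -1.87 and -0.39 in cKO cells. At *Tbx3* the values were -1.55, -1.89 and -1.62 against -1.32, -1.47 and -0.43, and at *Sox2* -1.59, -1.87 and -1.55 against -1.29, -1.55 and -0.39. In each of these 4 genes cKO replicate 2 was the highest of the 6 libraries by a wide margin.

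All 10 day 8 differences were positive, between 0.15 (*Tfcp2l1*) and 0.86 (*Pou5f1*), with a median of 0.60 against 0.25 over all gene loci. The median over all gene loci was thus positive too, and the share of them with a positive difference was not determined. Both cKO libraries were above both controls at 6 loci (*Pou5f1*, *Nanog*, *Klf4*, *Zfp42*, *Tbx3* and *Dppa3*), with a background of 36.3%, and the others overlapped. *Klf4*, *Zfp42*, *Tbx3* and *Dppa3* had all 3 cKO libraries, day 4 included, above all 3 controls. The share of all gene loci that did so was not determined. Same-numbered day 8 libraries differed by 0.51 and 0.40 at *Klf4*, 0.67 and 0.63 at *Dppa3*, 0.22 and 0.41 at *Zfp42* and 0.42 and 1.20 at *Tbx3*. In limma 0 members and 0% of 23517 loci were called, also by limma-voom, the smallest adjusted p of a member being 0.577. At an unadjusted p under 0.05 only *Dppa3* was higher (0.65, limits 0.002 to 1.30), with a background of 3.51%. Without cKO replicate 2, the library of narrow spread, the median difference was 0.17 and 0 members were called. Without cKO replicate 1 it was 0.90 and 6 members (*Pou5f1*, *Nanog*, *Sox2*, *Prdm14*, *Tbx3* and *Dppa3*) were called, among 6559 loci. With each library centred on the median of all gene loci the median was 0.33, and *Esrrb* (-0.10) and *Tfcp2l1* (-0.13) turned negative.

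At day 4, 9 of the 10 loci were higher in the cKO library, between -0.10 (*Prdm14*) and 0.51 (*Pou5f1*), with a median of 0.21 against 0.10 over all gene loci. The share of all gene loci that were higher was not determined. The difference between day 8 and day 4 was called at 0 members and 0% of loci. At the gene starts H3K9me2 was scarce, with 0 to 45 reads per library, and 0 members were above the input in all controls, against 13.7% of all starts. Both cKO libraries were above both controls at *Nanog* and *Sox2*, with a background of 31.2%. The start of *Nanog* held 6, 7 and 4 reads in control and 5, 12 and 21 in cKO cells, a difference of 1.46 (limits 0.25 to 2.66) and the only one at an unadjusted p under 0.05, with a background of 4.23%. Again 0 members and 0% of 23367 starts were called. Without cKO replicate 2 the difference at *Nanog* was 1.18 (limits -0.13 to 2.50), and the median over the 10 starts fell from 0.53 to -0.024.

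Few tiles carried H3K9me2. The count of enriched tiles was 3, all in *Esrrb*, with a background of 1.38%. In 17 tiles, or 5.36%, both day 8 cKO libraries had at least 2 times the control, with a background of 2.07%. In 0 tiles they had at most 0.5 times, with a background of 0.301%. Apart from chr3:34528001-34530000 upstream of *Sox2*, with a mean of 0.16, the 17 tiles had a mean cKO level below the input. With cKO replicate 1 or 2 left out, 105 and 47 tiles were higher, against 12.2% and 6.87% of all tiles, and 1 and 27 lower, against 4.06% and 6.46%. The widest rise (chr17:35648001-35650000, a UTR of *Tcf19*, 6.0 kb from the start of *Pou5f1*) was from 1, 1 and 0 reads to 4, 4 and 11, below the 15 reads of the input. The widest fall (chr12:87824001-87826000, an *Esrrb* intron) was from 10, 8 and 12 reads to 9, 2 and 16. Gain by the tile count was found in 1 tile, with a background of 0.4%. It covers a coding exon of *Tfcp2l1* (chr1:120572001-120574000, 48.5 kb from the start) and held 16, 22 and 14 reads in control and 22, 26 and 30 in cKO cells, with 11 in the input. Its log2 levels over input were 0.92, 0.78 and 0.58 in control and 0.93, 1.25 and 1.19 in cKO cells, so that it crossed the limit by a small step, and its adjusted p was 0.877. The tiles gained were 3 and 9 with cKO replicate 1 or 2 left out, against 1.23% and 2.96% of all tiles.

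H3K9me3 was below the input at all 10 loci in all 3 control libraries, and at 8 of them in all 6 libraries. Of all gene loci 18.9% were above it in all 3 control libraries, and the share below it in all 3 was not determined. Gene loci at large were also below the input, with a median of -0.40 in control cells, against -0.65 over the members. *Klf4*, *Dppa3*, *Zfp42*, *Tfcp2l1* and *Esrrb* stood at percentiles 49.9, 50.1, 51.8, 63.2 and 67.1 of all gene loci, and so were not unusually low. The most depleted were *Nanog*, with -1.02, -1.27 and -1.14 in control and -1.03, -1.99 and -1.38 in cKO cells, *Sox2*, with -1.12 ± 0.11 and -0.98 ± 0.07 (SD, n = 3), and *Pou5f1*, with -0.79, -1.01 and -1.34 against -0.89, -1.75 and -1.20. *Esrrb* was nearest to the input, with -0.15 ± 0.07 and -0.06 ± 0.11 (SD, n = 3). The lowest values of *Nanog* and *Pou5f1* both came from the shallow cKO replicate 1, in which each locus held 29 reads.

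The day 8 differences were small and went both ways, from -0.48 (*Nanog*) to 0.27 (*Prdm14* and *Zfp42*), with a median of 0.06 against 0.02 over all gene loci. Both cKO libraries were above both controls at *Sox2*, *Zfp42* and *Prdm14*, with a background of 31.1%, and below both at *Nanog* and *Tfcp2l1*, with a background of 21.8%. At *Zfp42* and *Prdm14* all 3 cKO libraries, day 4 included, were above all 3 controls: *Zfp42* had -0.50, -0.32 and -0.30 in control and -0.22, 0.02 and -0.10 in cKO cells, and *Prdm14* -0.81, -0.89 and -1.02 against -0.61, -0.73 and -0.64. The share of all gene loci that did so was not determined. *Zfp42* and *Prdm14* were the 2 loci higher at an unadjusted p under 0.05, with a background of 12.1%, and *Nanog* was the 1 lower, with a background of 8.93%. In limma 0 members were called, and 12 of 23514 loci, or 0.051%, the smallest adjusted p of a member being 0.209. Without cKO replicate 2, which leaves the shallow library alone in its group, *Pou5f1* and *Nanog* were called lower among 3227 loci. Without cKO replicate 1 0 members were called, among 665.

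At day 4 the H3K9me3 differences lay between -0.10 and 0.28, and the test of day 8 against day 4 called 0 members and 0% of loci. At the gene starts only *Esrrb* was above the input in all controls, against 10.5% of all starts, and both cKO libraries were above both controls at *Zfp42* and *Dppa3*, with a background of 16.2%. Of 23360 starts 0% were called, and at an unadjusted p under 0.05 0 members differed. The shallow library held 0 to 7 reads in each start. Without it the median difference over the 10 starts was 0.24, against 0.18 with it, and that at *Nanog* was 0.18, against -1.01. Without cKO replicate 2, which leaves the shallow library alone, *Nanog*, with 1 read there, was called lower among 2366 starts.

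By the tile count H3K9me3 was enriched in 2 tiles, with a background of 2.49%, at least 2 times higher in cKO cells in 8 tiles, with a background of 1.03%, and at most 0.5 times in 5 tiles, with a background of 2.18%. Leaving out cKO replicate 1 or 2 gave 34 and 34 higher tiles, against 6.76% and 9.7% of all tiles, 26 and 74 lower, against 8.14% and 18.9%, and 6 and 10 gained, against 2.35% and 5%. Gain was found in 4 of 317 tiles, with a background of 1.08%: chr12:87686001-87688000 upstream of *Esrrb*, chr12:87750001-87752000 in an *Esrrb* intron, chr8:44408001-44410000 upstream of *Zfp42* and chr6:122590001-122592000 downstream of *Dppa3*. None covers a gene start. In the first the reads were 13, 10 and 14 in control and 29, 8 and 21 in cKO cells, and in the *Zfp42* tile 11, 17 and 22 against 27, 10 and 31. The shallow replicate 1 entered each of the 4 with 8 or 10 reads, and their adjusted p was at least 0.773. The widest rise (chr8:44392001-44394000, over the start of *Zfp42*) was from 6, 1 and 3 reads to 4, 3 and 7, and the widest fall (chr5:120132001-120134000, in *Tbx3*) from 10, 6 and 7 to 10, 1 and 1. Tested without cKO replicate 2, which leaves the shallow library alone in its group, 16 member tiles were called, among 76307.

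Set beside other gene groups, the median of the 10 loci lay between that of housekeeping genes and that of lineage regulators in H3K27me3. Of 25 further pluripotency genes 7 were above the input in all control libraries, with a median level of -0.24. The highest were *Gbx2* (2.19), a homeobox gene also of the brain, *Fgf4* (1.00) and *Gdf3* (0.83), of which *Gdf3* shares tiles with the *Dppa3* locus, and the lowest *Rif1* (-1.70), *Dppa4* (-1.38) and *Dppa2* (-1.13). All 19 matched lineage regulators were above it, with a median of 2.63. The endoderm, trophoblast and mesoderm regulators *Foxa2* (3.17), *Cdx2* (3.14) and *Lhx1* (3.08) were highest and *Mixl1* (1.09), *Gata4* (1.85) and *Myod1* (1.90) lowest, so that *Tbx3* with 2.71 was close to their median. Of the 12 housekeeping genes 0 were above it, with a median of -0.87, close to *Zfp42*. They ran from *Atp5b* (-1.71), *Eef1a1* (-1.61) and *Ppia* (-1.44) to *Hsp90ab1* (-0.0005) and *Pgk1* (0.11). The 12 fibroblast genes, markers of feeder cells that cultures could hold, had a median of 0.69 and 8 were above the input in all controls, with *Twist1* (2.23), *Col1a1* (1.80) and *Pdgfrb* (1.62) highest and *Fn1* (-0.83), *Lum* (-0.71) and *Dcn* (-0.63) lowest. The part of feeder cells in these libraries was not tested.

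The day 8 H3K27me3 difference had a median of -0.50 over the lineage regulators, -0.38 over the 10 loci, -0.26 over the housekeeping genes, -0.21 over the further pluripotency genes and 0.02 over the fibroblast genes. At an unadjusted p under 0.05, 14 of 19 lineage regulators, 6 of 10 pluripotency loci, 6 of 25 further pluripotency genes, 4 of 12 housekeeping genes and 2 of 12 fibroblast genes were lower. The background was 16.6% of all gene loci, and the adjusted p called 0 in each list. Without cKO replicate 1 or 2 the medians were -0.68 and -0.35 over the lineage regulators, -0.54 and -0.31 over the 10 loci, -0.42 and -0.13 over the housekeeping genes, -0.23 and -0.073 over the further pluripotency genes and 0.021 and 0.066 over the fibroblast genes. In H3K9me2 the medians were 0.75 over the housekeeping genes, 0.60 over the 10 loci, 0.45 over the further pluripotency genes, 0.32 over the lineage regulators and 0.06 over the fibroblast genes. Without cKO replicate 2 they were 0.0083, 0.17, 0.092, 0.16 and 0.091 in the same order, and without cKO replicate 1 they were 1.47, 0.90, 0.76, 0.47 and 0.073, so that the order of the lists rests on 1 library. In H3K9me3 they lay between -0.16 and 0.11 in all 5 lists.

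*Nanog* had the pattern most like that of *Pou5f1*. Over the 18 ChIP libraries the Euclidean distance of its log2 levels from those of *Pou5f1* was 1.34, against 3.49 for *Zfp42* and 5.06 for *Prdm14*, the next in order. *Pou5f1* and *Nanog* shared depletion of all 3 marks. *Zfp42* was also below the input in all 3 control libraries of each mark, with a milder depletion of H3K9me2 and H3K9me3. Its mean H3K9me3 level in control cells was -0.37, at percentile 51.8 of all gene loci. That of *Pou5f1* was -1.04 and that of *Nanog* -1.14, at percentiles 8.43 and 4.92. The points share libraries and depth.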

How the data were processed

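Chromatin of control and *Dnmt1* cKO ESCs was immunoprecipitated for 3 histone marks and sequenced in pairs of reads at days 4 and 8, with 1 input. Per the labels and methods, the authors trimmed reads with Trim Galore, aligned them to NCBIM37 with Bowtie2 (2.2.9), discarded low mapping quality, and deposited log2 of observed over expected reads per tile, with tiles of 2 kb in the table and 1 kb in the methods. Removal of duplicate reads is not given in the sources used here. The extraction text names an H3K9me2 antibody for all samples. Marks were therefore taken from each sample's own antibody label. All 22 chromosomes had the lengths of the reference used for annotation and sequence.

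Every low deposited log2 value matched a whole number of reads within 0.05, a tile with 0 reads being written as 0.9 reads, so reads were recovered and summed over windows. The input was not subtracted in tests between genotypes. Day 8 groups (2 against 2) were compared with limma (3.58.1, R 4.3.3) over all genes, or over all tiles with a read, with Benjamini-Hochberg adjustment at 0.05, and the scripts were tested on simulated data. Other values came from Python 3.11.15, with numpy 2.4.6, pandas 2.3.3, scipy 1.17.1 and matplotlib 3.10.9. Groups came from the labels. All 10 genes are named throughout, with the tiles of widest rise and fall for each mark, the highest H3K27me3 tile of each gene, all gained tiles, the 3 highest and 3 lowest genes of each other list, and the 3 genes nearest to *Pou5f1*. One gene that this rule names is not reported here. The members and lists were chosen with earlier results of these data known. *Sox1* of the lineage list was not analysed here. Alternatives changed the value per window, variance model, test, scaling, GC content, window, read minimum and libraries.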

Additional observations from a re-analysis of the deposited data

How the results depend on the processing

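For counts of members called at day 8, given with all genes called in brackets, the outcome for H3K27me3 depended on the fit. Same-numbered control and cKO libraries deviated together over all gene loci (Pearson's r over genes was 0.588 in H3K27me3, 0.496 in H3K9me2 and 0.183 in H3K9me3, or 0.219, 0.032 and 0.040 at starts). With 2 pairs and no statement of a shared batch, the libraries share only a number. With the replicate block 8 members (8095) were called in H3K27me3 at the loci, 1 of them higher (*Pou5f1*), and 8 (7867) with the block and a GC correction. At the gene starts 3 members (2551) were called with a variance trend, 3 (2757) by limma-voom, 1 (274) after centring on 100 kb windows, 2 (652) with 5 kb either side, and 4 of the 8 left (2611) with at least 10 reads in each library. Single tiles gave 6 (3067) with a trend, 11 (5408) by limma-voom and 11 of the 190 left (4322) with at least 10 reads. In H3K9me3 loci 1 member, *Prdm14*, was called higher with 50 kb flanks (1705), and over all genes the 12 loci called became 0 with mean log2 values, 1509 with a trend, 3343 by limma-voom and 47 with the block. The cause was not tested.

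Leaving out 1 library, which assumes that the lone library left varies like the others, gave 0 to 5 members for H3K27me3 loci (51 to 3687 of all loci), 0 to 3 for its starts (101 to 4780), 0 to 6 for H3K9me2 loci (0 to 6559), 0 to 2 for H3K9me3 loci (16 to 3227), 0 to 1 for its starts (0 to 2366) and 0 to 16 for its tiles (0 to 76307). The members' median difference then ran from -0.54 to -0.31 for H3K27me3 loci, -0.75 to -0.33 for its starts, 0.17 to 0.90 for H3K9me2 loci, -0.024 to 1.21 for its starts, -0.019 to 0.13 for H3K9me3 loci and -0.21 to 0.60 for its starts. The median level in control cells ran from 1.05 to 1.19 and 1.00 to 1.09 (H3K27me3, loci and starts), -1.37 to -1.10 and -2.34 to -2.10 (H3K9me2), and -0.71 to -0.63 and -1.39 to -0.89 (H3K9me3). Tiles gained, higher and lower ran from 1 to 3, 10 to 22 and 43 to 69 in H3K27me3, from 3 to 9, 47 to 105 and 1 to 27 in H3K9me2, and from 6 to 10, 34 to 34 and 26 to 74 in H3K9me3, a comparison chosen after seeing the data.

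The median H3K27me3 difference was -0.22 with mean log2 values and -0.52 for genes without flanks, and at starts -0.36 with a GC correction, with or without the block, and -0.88 with at least 10 reads. That of H3K9me2 was 0.33 after centring on gene loci and -0.088 at the 1 start with at least 10 reads, and no start of a member had 10 reads in every H3K9me3 library. The median H3K27me3 level in control cells was 0.36 with mean tile differences, 1.41 after centring on 100 kb windows and 0.68 without flanks, and 1.35 at starts after such centring. That of H3K9me2 was -2.16 without flanks, and at starts -2.31 with mean tile differences and -2.15 without high input tiles, and that of H3K9me3 -0.79, -0.53 and -0.99 at loci with mean tile differences, such centring and no flanks.

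Tile counts under other limits are given with the share of all tiles in brackets. At 1.5 times, the tiles gained, higher and lower were 2 (2.13%), 8 (5.44%) and 58 (5.57%) in H3K27me3, 5 (1.32%), 47 (6.21%) and 1 (2.75%) in H3K9me2 and 8 (2.29%), 24 (5.54%) and 27 (7.76%) in H3K9me3, and the enriched tiles of the latter marks 11 (7.36%) and 6 (6.02%). At 4 times, 33 H3K27me3 tiles were enriched (1.26%) and 0 higher (0.012%) or lower (0.0813%). H3K9me2 then had 0 enriched (0.000673%), 0 gained (0.000192%) and 2 higher (0.154%), and H3K9me3 0 enriched (0.274%), 0 gained (0.0374%), 0 higher (0.0144%) and 0 lower (0.0357%). With at least 20 input reads, H3K27me3 had 7 enriched (1.26%), 0 higher (0.763%) and 3 lower tiles (1.57%), H3K9me2 0 enriched (0.0118%), 0 gained (0.00158%) and 3 higher (1.59%), and H3K9me3 1 enriched (0.639%), 0 gained (0.134%), 1 higher (0.793%) and 1 lower (2.32%). With at least 5, 1 tile gained H3K27me3 (1.36%) and 2 H3K9me2 (0.6%), with 7 (3.03%) and 5 (4.1%) enriched in H3K9me2 and H3K9me3.

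Some signs turned, all of differences that had not passed the test. H3K27me3 at *Pou5f1* was -0.61 without flanks and -0.33 with 50 kb flanks, and -0.20 and -0.22 at its start with mean log2 values and 5 kb either side. At *Zfp42* it was 0.12 with 50 kb flanks and -0.31 to 0.13 with 1 library left out, and at its start -0.041 with 5 kb either side and -0.046 to 0.44 with 1 library left out. At the start of *Nanog* it ran from -0.37 to 0.22 with 1 library left out. H3K9me2 was -0.10 at *Esrrb* and -0.13 at *Tfcp2l1* after centring on gene loci, and -0.050 to 0.34 at *Tfcp2l1* with 1 library left out. H3K9me3 at *Klf4* was -0.059 with mean log2 values, -0.034 with the GC correction, the same with the block added, -0.43 without flanks and -0.034 to 0.13 with 1 library left out. At *Esrrb* it was -0.038 with mean log2 values and -0.0042 to 0.16 with 1 library left out, at *Tfcp2l1* 0.00039 after centring on 100 kb windows and 0.026 with 50 kb flanks, and at *Tbx3* -0.16 to 0.0078 with 1 library left out. Depth limits the H3K9me2 and H3K9me3 starts and every H3K9me3 result that rests on the shallow cKO library.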
